A study of Mus musculus with 48 samples.

Results

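The genes described here are 9 that mark natural killer cells or run their development and signalling, out of 36854 genes in the count table. They were chosen by symbol, through the Ensembl identifiers of the table, not by a threshold on their values, though with earlier results of these data known: the receptors Ncr1, Klrb1c, Klrk1, Klrd1, Klrc1 and Klre1, the transcription factors Eomes and Tbx21, and the cytokine receptor chain Il2rb. All 9 had reads in each of the 48 tumours and passed the filter on low counts.

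The tumours were sarcomas of 129/SvJae mice, sequenced in bulk. Allografts (16 tumours) grew from 50000 cells of a single sarcoma line, 402230, grafted into the gastrocnemius of syngeneic animals, so that they share their tumour cells. Primary sarcomas (32 tumours) arose in p53FL/FL mice of 6 to 10 weeks of age that were given an adenovirus carrying Cre and 300 µg of the carcinogen MCA in the same muscle. At about 150 mm3 a tumour received 0 or 20 Gy and 200 µg of either an isotype antibody or the anti-PD-1 antibody muDX400, and it was harvested on day 3. This gives 8 groups, with 4 allografts or 8 primary tumours in each. Totals were 31.8 to 54.0 M counts per tumour, with a median of 41.2 M. Trp53, the gene deleted to start the primary tumours, was still at 20.2 to 60.7 CPM (read counts scaled to the library total) in them and at 25.7 to 45.8 CPM in the allografts. These bulk levels do not tell tumour cells from host cells.

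Natural killer cells are lymphocytes that kill stressed, virus-infected or transformed cells without an antigen receptor, and weigh activating against inhibitory signals from receptors encoded in the germ line. Ncr1 (NKp46) and Klrb1c (NK1.1) are the usual mouse markers of the lineage, while Klrk1 (NKG2D) binds stress ligands and is also carried by activated CD8 T cells. Klrd1 (CD94) pairs with Klrc1 (NKG2A) into an inhibitory receptor for Qa-1, the product of H2-T23, and Klre1 pairs with KLRI1 or KLRI2. Eomes and Tbx21 (T-bet) are T-box factors of natural killer cell maturation and of effector T cells, and Il2rb is the chain through which interleukin-15 and interleukin-2 signal.

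By the GENCODE M21 annotation of mm10, 5 of the 9 genes lie in a single cluster of lectin-like receptors, the natural killer gene complex. These 5 genes span 900.49 kb of chromosome 6 from the start of Klrb1c to the end of Klrc1. Klrb1c (ENSMUSG00000030325) lies at chr6:128778485-128789215 on the minus strand, Klre1 (ENSMUSG00000050241) at chr6:129577905-129585827 on the plus strand, and Klrd1 (ENSMUSG00000030165) at chr6:129591782-129598775 on the plus strand. Klrk1 (ENSMUSG00000030149) lies at chr6:129610323-129623864 and Klrc1 (ENSMUSG00000030167) at chr6:129666015-129678973, both on the minus strand. Ncr1 (ENSMUSG00000062524) lies at chr7:4337724-4345164 and Eomes (ENSMUSG00000032446) at chr9:118478212-118486132, both on the plus strand. Tbx21 (ENSMUSG00000001444) lies at chr11:97098071-97115331 and Il2rb (ENSMUSG00000068227) at chr15:78479256-78495271, both on the minus strand. All are protein coding. Gm44511 shares 13.9% of the exon bases of Klrb1c on the same strand, and Gm33460 overlaps 2.84% of those of Eomes on the opposite strand, so the counts of these pairs can be mixed.

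The promoters of 7 of the 9 genes were found in RefSeq (GRCm38.p6), Klrd1 and Il2rb being the others. The letters TGTGGT, the core to which RUNX factors bind, were searched on both strands (ACCACA on the opposite strand) in windows of 300 bases, from 250 before the start to 50 after it. They were present in 5 of the 7 genes, Ncr1, Klrb1c, Klrk1, Klrc1 and Klre1 (in 1 of the windows listed for it), and in 16.8% of 32851 promoter windows of the same length. The letters AGGTGT, the core to which T-box factors bind, were in 0 of the 7 and in 13.7% of all windows. A match of letters describes the sequence and shows no binding. Shown here are the 250 bases before the start of the gene for Ncr1 (chr7:4337474-4337723, plus strand), Klrk1 (chr6:129623865-129624114, minus strand) and Klrc1 (chr6:129678974-129679223, minus strand), which stand for the lineage marker, the activating receptor and the inhibitory receptor. Each reads 5′ to 3′ on the strand of its gene, with the match in capitals. The matches begin 185 and 50 bases before the start of Ncr1, 129 before that of Klrk1 and 87 before that of Klrc1.
Ncr1: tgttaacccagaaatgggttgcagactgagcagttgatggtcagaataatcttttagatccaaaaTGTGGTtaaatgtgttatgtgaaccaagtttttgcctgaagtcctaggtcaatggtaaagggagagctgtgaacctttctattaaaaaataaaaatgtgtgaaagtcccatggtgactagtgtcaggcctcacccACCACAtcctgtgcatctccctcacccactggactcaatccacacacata
Klrk1: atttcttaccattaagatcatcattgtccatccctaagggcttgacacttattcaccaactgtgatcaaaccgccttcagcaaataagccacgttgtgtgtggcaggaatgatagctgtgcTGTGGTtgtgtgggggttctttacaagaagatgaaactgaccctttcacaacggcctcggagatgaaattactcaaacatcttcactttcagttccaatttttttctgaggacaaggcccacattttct
Klrc1: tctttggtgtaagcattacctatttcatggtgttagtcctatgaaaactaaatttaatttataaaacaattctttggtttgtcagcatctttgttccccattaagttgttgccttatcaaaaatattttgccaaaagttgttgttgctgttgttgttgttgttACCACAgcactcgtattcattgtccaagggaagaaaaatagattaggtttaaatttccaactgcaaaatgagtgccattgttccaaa

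The 9 genes differed in their median level. Per kilobase of exon, median levels over the 48 tumours were highest for Il2rb, at 8.71 RPKM (CPM per kilobase), and for Klrd1, at 4.69 RPKM. Ncr1 (2.34 RPKM), Klrk1 (2.22 RPKM) and Klrc1 (1.70 RPKM) followed, then Tbx21 (0.895 RPKM), Eomes (0.70 RPKM), Klre1 (0.644 RPKM) and Klrb1c (0.487 RPKM). Ranges overlapped between each gene and its neighbours in this order, and the order turned with the kind of tumour. At 0 Gy with isotype, Ncr1 averaged 1.18 ± 0.22 RPKM (SD, n = 4) in allografts, below Klrk1 at 2.05 ± 1.06 RPKM, and 2.94 ± 2.98 RPKM (SD, n = 8) in primary tumours, above Klrk1 at 1.10 ± 0.90 RPKM. In reads, the lowest tumour held 22 for Ncr1, 6 for Klrb1c, 12 for Klre1 and 13 for Tbx21, so that counting error weighs on single low tumours. It weighs less on Klrk1, with at least 81 reads, and on Il2rb, with at least 265. All CPM values use TMM scaling (trimmed mean of M values) across the 48 tumours.

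**Figure D1:**
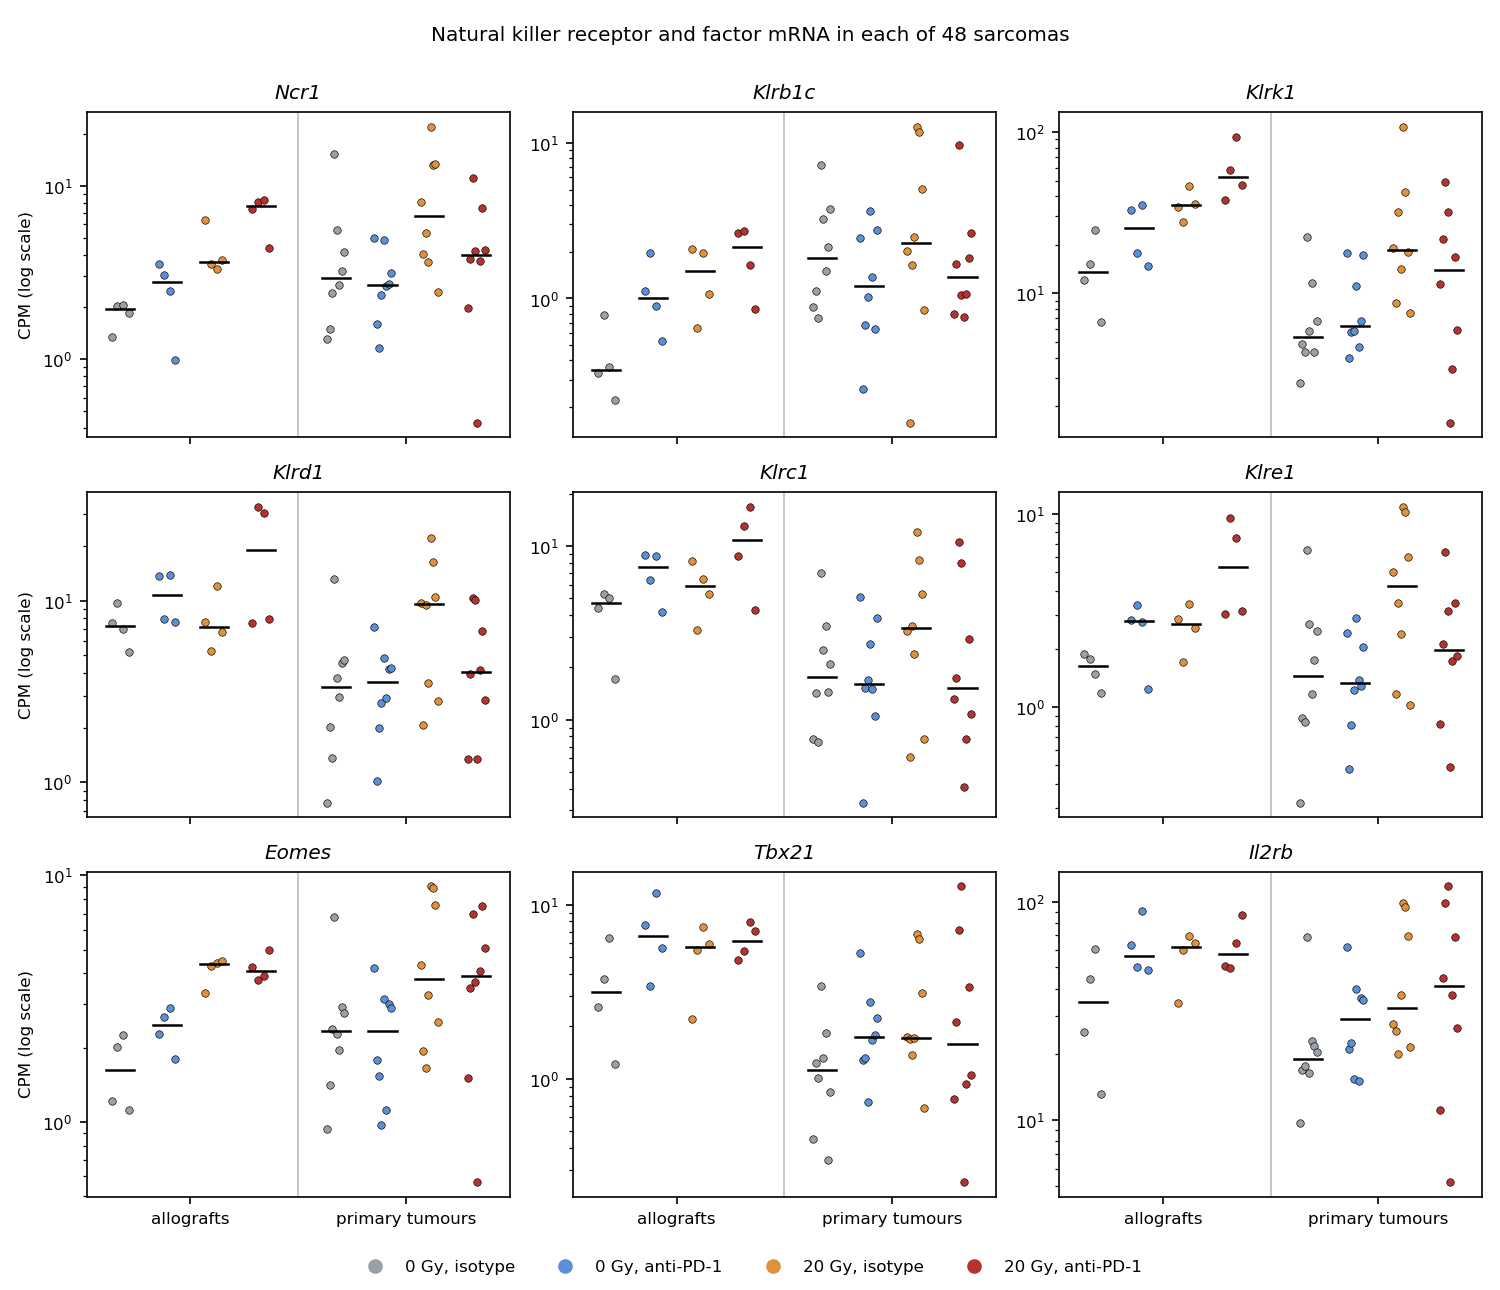
Level of each of the 9 genes in every tumour, in CPM on a log axis, by group (4 allografts or 8 primary tumours a group); each point is a tumour and each bar the group's median. For Ncr1, Klrk1 and Eomes the allografts given 20 Gy lie above those given 0 Gy with the same antibody, while the primary groups overlap for all 9 genes.

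Some tumours stood apart before any comparison. Within a group of allografts the highest tumour exceeded the lowest by 1.32 to 5.34 times (median 2.33 over the genes and groups), and within a group of primary tumours by 4.13 to 79.7 times (median 10.3). In the primary tumours given 0 Gy and isotype, tumour 4 was the highest for 9 of 9 genes, with Ncr1 at 15.3 CPM against 1.31 CPM in the lowest tumour of its group. In those given 20 Gy and isotype, tumour 5 was the highest for 9 of 9, with Klrk1 at 107.95 CPM. Calls of the 9 genes that change without either tumour are given without it, within the primary tumours and between the kinds given isotype; the interaction tests were not repeated without them.

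A further split concerned the gene complex itself. Klri2, a partner chain of Klre1 encoded in the same complex, had 0 to 5 reads in 17 tumours and 16 to 436 reads in the other 31. It was chosen for description after its values were seen. The 17 comprised 13 of the 16 allografts and 4 of the 32 primary tumours (2 given 0 Gy and anti-PD-1, 1 given 20 Gy and isotype, 1 given 20 Gy and anti-PD-1). Klra3, a receptor of the Ly49 family from the same complex, had 0 to 2 reads in the 13 allografts low in Klri2 and 27 to 42 reads in the other 3. In primary tumours its reads overlapped, at 0 to 5 in the 4 low in Klri2 and 1 to 159 in the other 28. Ncr1, on another chromosome, had 39 to 341 reads in those 13, so low Klri2 did not come with absent natural killer transcripts. Klrb1c stood at 24.4 to 177% of the Ncr1 CPM (median 57.0%) in the 28 primary tumours with more than 5 Klri2 reads, and at 3.95 to 24.8% (median 19.8%) in the 4 others. In the allografts it stood at 12.2 to 58.7% (median 28.6%) in the 13 low in Klri2 and at 32.9 to 63.7% (median 36.3%) in the 3 others. The labels give the 129/SvJae background for all mice, and the alleles carried at this complex are not given in the sources used here. The part that alleles of the complex or the mapping of their reads have in these values was not tested.

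**Figure D2:**
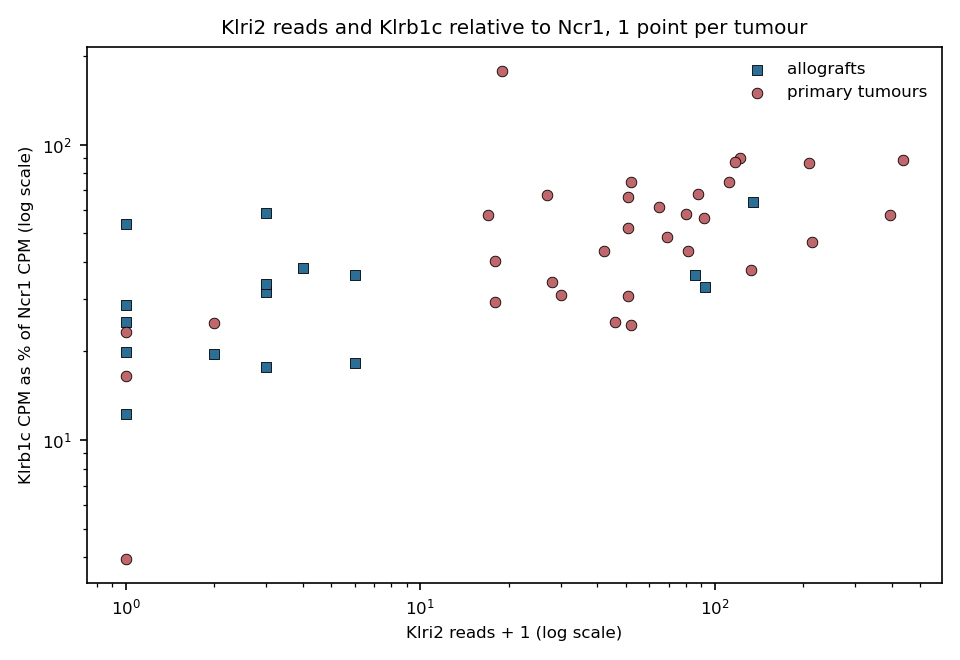
Klri2 reads plus 1 on a log axis (horizontal) against Klrb1c as a percentage of Ncr1 CPM (vertical), a point for each of the 48 tumours, allografts and primary tumours marked apart. The 17 tumours with at most 5 Klri2 reads, 13 of them allografts, are separated from the 31 with 16 reads or more.

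Radiation of allografts with isotype antibody was followed by higher Eomes and Ncr1. In the 4 allografts given 0 Gy and isotype, Eomes stood at 1.22, 2.02, 2.25 and 1.12 CPM, and in the 4 given 20 Gy and isotype at 3.33, 4.30, 4.41 and 4.48 CPM. Every irradiated tumour was above every unirradiated tumour, and the log2 fold change was 1.35 ± 0.26 (SE, n = 4 and 4, adjusted p = 0.00793 by edgeR's quasi-likelihood test with Benjamini-Hochberg adjustment over 17746 genes, used for all adjusted p-values below unless another test is named). Ncr1 stood at 1.34, 2.04, 2.05 and 1.84 CPM without radiation and at 6.33, 3.53, 3.32 and 3.72 CPM with it. These did not overlap either, the irradiated tumour at 6.33 CPM lying apart from the rest, and the log2 fold change was 1.24 ± 0.34 (edgeR adjusted p = 0.047). Ncr1 was close to the threshold of 0.05: leaving out any of 14 of the 16 allografts from the fit moved its adjusted p to between 0.0515 and 0.149, with log2 fold changes of 0.99 to 1.32. Without the 3 allografts that had over 5 Klri2 reads it was 0.99 (edgeR adjusted p = 0.141), while Eomes was 1.45 (edgeR adjusted p = 0.0231). The first digit of the animal number was 4 in 0 of these 4 unirradiated and 3 of these 4 irradiated allografts. With this digit as a covariate neither passed, Eomes being at 1.31 (edgeR adjusted p = 0.0654) and Ncr1 at 1.02 (edgeR adjusted p = 0.267). Nor did either with all 48 tumours fitted, at 1.32 for Eomes (edgeR adjusted p = 0.286) and 1.22 for Ncr1 (edgeR adjusted p = 0.479).

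Klrk1 and Klrb1c, the other activating receptors, had estimates of like size that missed the threshold. Klrk1 was 12.1, 15.2, 24.8 and 6.68 CPM at 0 Gy and 34.5, 27.5, 46.3 and 35.6 CPM at 20 Gy, again without overlap (log2 fold change 1.32 ± 0.38, edgeR adjusted p = 0.062). Klrb1c was 0.334, 0.779, 0.360 and 0.224 CPM at 0 Gy and 2.08, 0.642, 1.95 and 1.06 CPM at 20 Gy. Here 1 irradiated tumour fell below the highest unirradiated one (log2 fold change 1.78 ± 0.52, edgeR adjusted p = 0.062). The other 5 genes gave estimates from 0.13 (Klrd1) to 0.76 (Klre1) and did not pass. Thus 2 of the 9 genes were called, both higher, where 5.14% of all genes tested were called in either direction. In 3 of the 9 (Ncr1, Klrk1 and Eomes) every irradiated tumour exceeded every unirradiated one, against 9.59% of all genes. All 9 estimates were above 0, with a median of 0.76 against a median of 0.00 over all genes tested.

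The same radiation contrast under anti-PD-1 called 1 of the 9 genes, Ncr1, where 3.96% of all genes were called. Ncr1 was 3.55, 3.06, 2.49 and 0.989 CPM at 0 Gy and 7.30, 8.02, 8.30 and 4.36 CPM at 20 Gy, without overlap (log2 fold change 1.48 ± 0.34, edgeR adjusted p = 0.0256). This call was lost on leaving out any of 4 tumours (tumours 2 and 4 at 0 Gy, tumours 2 and 3 at 20 Gy, all given anti-PD-1), with log2 fold changes of 1.21 to 1.60 and edgeR adjusted p of 0.0528 to 0.0904. It was lost as well without the 3 allografts that had over 5 Klri2 reads (1.58, edgeR adjusted p = 0.0693), with Xist, the RNA of X inactivation, as a covariate (above 10 CPM or not, 1.42, edgeR adjusted p = 0.0509), with only these 2 groups fitted (1.48, edgeR adjusted p = 0.144) and with all 48 tumours fitted (1.47, edgeR adjusted p = 0.315). Klrk1 (log2 fold change 1.24 ± 0.38, edgeR adjusted p = 0.0831) and Eomes (0.83 ± 0.25, edgeR adjusted p = 0.0827) did not overlap between doses but missed the threshold. Non-overlap of this kind held for 3 of the 9 genes, against 5.83% of all genes. Estimates for Tbx21 (-0.15) and Il2rb (0.01) were near 0.

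With the antibody arms averaged in a single contrast, an alternative chosen after the values were seen, 5 of the 9 genes rose with dose in the allografts, and 13.7% of all genes were called. These were Ncr1 (log2 fold change 1.36 ± 0.24, edgeR adjusted p = 0.00144), Eomes (1.09 ± 0.18, edgeR adjusted p = 0.000956), Klrk1 (1.28 ± 0.27, edgeR adjusted p = 0.00498), Klrb1c (1.28 ± 0.36, edgeR adjusted p = 0.0256) and Klre1 (0.97 ± 0.27, edgeR adjusted p = 0.0272). The CD94 and NKG2A pair, Klrd1 and Klrc1, and Tbx21 and Il2rb did not pass (log2 fold changes 0.24 to 0.57). Cd3e, a chain of the T cell receptor complex, was at -0.23 ± 0.30 (edgeR adjusted p = 0.696) in the same contrast, and Ptprc (CD45), carried by all leukocytes, at 1.53 ± 0.22 (edgeR adjusted p = 0.000307).

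Antibody alone called none of the 9 genes in the allografts, and 0% of all genes, at either dose. At 0 Gy the estimates ran from 0.46 (Ncr1) to 1.40 (Klrb1c), with 1 gene, Klrb1c, at an unadjusted p under 0.05 by edgeR and 0 called by DESeq2. At 20 Gy Klrd1 (log2 fold change 1.27 ± 0.44, 95% interval 0.33 to 2.22) and Klre1 (1.10 ± 0.39, interval 0.28 to 1.92) were the 2 genes at an unadjusted p under 0.05 by edgeR, again with 0 called by DESeq2. Klrd1 was 7.65, 5.29, 12.0 and 6.74 CPM with isotype and 7.56, 33.0, 30.3 and 7.91 CPM with anti-PD-1, so that 2 tumours of the latter group carried the estimate. Klre1 had the same 2 tumours on top, at 9.49 and 7.45 CPM against 3.01 and 3.13 CPM. The interaction of dose and antibody called 0 of the 9 genes and 0% of all genes, with 0 of the 9 at an unadjusted p under 0.05 by edgeR and 0 called by DESeq2, and estimates from -0.98 (Klrb1c) to 0.74 (Klrd1). The widest of its 95% intervals ran from -2.49 to 0.52 (Klrb1c).

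Radiation and anti-PD-1 together, against neither, gave the broadest change in the allografts. Of the 9 genes 5 rose, where 9.66% of all genes were called, and in these 5 every treated tumour exceeded every control (8.93% of all genes). Ncr1 rose by a log2 fold change of 1.94 ± 0.34, from a mean of 1.82 ± 0.33 (SD, n = 4) to 7.00 ± 1.81 CPM (SD, n = 4) (edgeR adjusted p = 0.00329). Klrk1 rose from 14.7 ± 7.62 to 58.9 ± 23.9 CPM, the treated tumours standing at 38.0, 58.3, 92.5 and 46.8 CPM (log2 fold change 2.00 ± 0.39, edgeR adjusted p = 0.00549). Klrb1c was 2.65, 2.71, 1.63 and 0.861 CPM after the combination, all above the 4 control values given for it earlier (log2 fold change 2.19 ± 0.52, edgeR adjusted p = 0.015). The Klrb1c call was lost without control tumour 1 or 4, with log2 fold changes of 2.02 to 2.09 and edgeR adjusted p of 0.0546 to 0.0568.

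Klre1 was 1.88, 1.76, 1.49 and 1.19 CPM in the controls and 3.01, 9.49, 7.45 and 3.13 CPM after the combination (log2 fold change 1.86 ± 0.39, edgeR adjusted p = 0.00835). Eomes was 4.26, 3.77, 3.92 and 4.99 CPM after the combination (log2 fold change 1.36 ± 0.26, edgeR adjusted p = 0.00467), a level also seen after radiation with isotype. The inhibitory pair fell just short: Klrc1 was 4.39, 5.27, 5.02 and 1.70 CPM in controls and 8.78, 13.0, 16.9 and 4.28 CPM after the combination (log2 fold change 1.38 ± 0.42, edgeR adjusted p = 0.0518), and Klrd1 had a log2 fold change of 1.41 ± 0.45 (edgeR adjusted p = 0.0607). Tbx21 (0.85 ± 0.48, edgeR adjusted p = 0.298) and Il2rb (0.82 ± 0.39, edgeR adjusted p = 0.211) did not pass. Both are shared widely with T cells, and in controls they ranged over 1.21 to 6.46 CPM and 13.1 to 60.7 CPM. Without the 3 allografts that had over 5 Klri2 reads, Klrd1 joined the 5 genes (log2 fold change 1.68, edgeR adjusted p = 0.0281). With the primary tumours in the same fit, 0 of the 9 genes were called for both treatments or in the other allograft contrasts of dose. For both treatments the log2 fold changes were then 1.94 for Ncr1, 2.00 for Klrk1, 2.20 for Klrb1c, 1.87 for Klre1 and 1.36 for Eomes. Their edgeR adjusted p ran from 0.0925 to 0.185, and the cause was not tested.

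**Figure D3:**
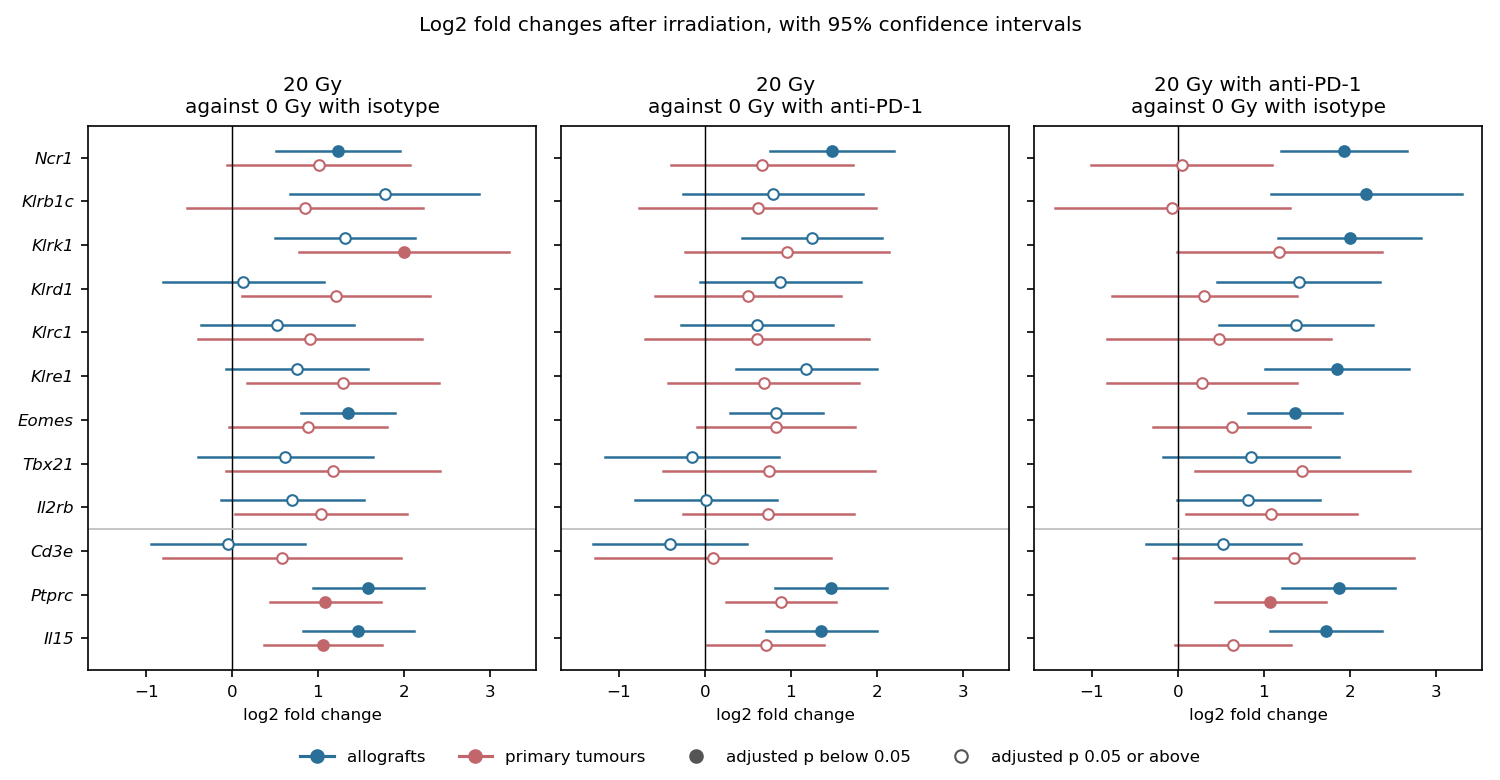
Log2 fold change with its 95% confidence interval for the 9 genes and for Cd3e, Ptprc and Il15 in 3 contrasts (radiation with isotype, radiation with anti-PD-1, both treatments against neither), allografts in blue and primary tumours in red. Filled points have an edgeR adjusted p below 0.05. Among the 9 genes in allografts this holds for Eomes and Ncr1 after radiation with isotype and for Ncr1 after radiation with anti-PD-1. It also holds for 5 of the 9 genes in allografts given both treatments and for Klrk1 in primary tumours given radiation with isotype. Points of Cd3e, Ptprc and Il15 follow the same rule.

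In the primary tumours, radiation with isotype called 1 of the 9 genes, Klrk1, a share near the 14.5% of all genes called and so no result about the 9 together. Its level was 2.80 to 22.5 CPM (median 5.36) in the 8 tumours given 0 Gy and 7.56 to 107.95 CPM (median 18.6) in the 8 given 20 Gy. The groups overlapped, as they did for all 9 genes, and the log2 fold change was 2.00 ± 0.60 (edgeR adjusted p = 0.0228). Without irradiated tumour 5, the one at 107.95 CPM, it was 1.41 (edgeR adjusted p = 0.109), and limma-voom gave 1.76 (adjusted p = 0.0515). Ncr1 was 1.31 to 15.3 CPM (median 2.94) at 0 Gy and 2.45 to 22.0 CPM (median 6.72) at 20 Gy (log2 fold change 1.01 ± 0.52, edgeR adjusted p = 0.197). Estimates for the other genes ran from 0.85 (Klrb1c) to 1.29 (Klre1), and the median of the 9 was 1.04 against -0.02 over all genes tested. Without tumour 4 of the unirradiated group, highest for all 9, the calls numbered 5 (Klre1, Klrd1, Klrk1, Ncr1 and Il2rb). The 14.5% is the share in the full fit, and none is given here for this one. Leaving out the highest tumour of a group moves the estimates in a direction fixed by that choice. The count thus rested on single tumours at both ends, from 0 to 5.

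Radiation under anti-PD-1 called 0 of the 9 genes in primary tumours, where 7.92% of all genes were called, with 0 of the 9 at an unadjusted p under 0.05 by edgeR and 0 called by DESeq2. Log2 fold changes ran from 0.50 (Klrd1) to 0.96 (Klrk1). Ncr1 was 1.17 to 4.99 CPM (median 2.69) at 0 Gy and 0.430 to 11.1 CPM (median 4.01) at 20 Gy, the irradiated group reaching both lower and higher. With the antibody arms averaged, Klrk1 (log2 fold change 1.48 ± 0.42, edgeR adjusted p = 0.009) and Eomes (0.86 ± 0.32, edgeR adjusted p = 0.0448) rose, 2 of 9 beside 26.3% of all genes, a share near the background, and Ncr1 was at 0.84 ± 0.37 (edgeR adjusted p = 0.0907). Without unirradiated tumour 4 the averaged contrast called 7 of the 9 (26.2% of all genes), all but Klrb1c and Klrc1. Without irradiated tumour 5 it called 1, Klrk1 (1.19, edgeR adjusted p = 0.0257), beside 23.4% of all genes. Both fits were added after the values were seen. Each tumour was left out as the highest of its group for all 9 genes, which fixed the direction of the change.

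Anti-PD-1 against isotype called 0 of the 9 genes in primary tumours at 0 Gy and at 20 Gy, and 0% of all genes, with 0 of the 9 at an unadjusted p under 0.05 by edgeR and 0 called by DESeq2 at either dose. At 20 Gy 7 of the 9 estimates were below 0, the lowest being Klre1 (-1.01, 95% interval -2.12 to 0.10) and Ncr1 (-0.97, interval -2.03 to 0.10). Both treatments against neither called 0 of the 9, where 13.8% of all genes were called, with 2 at an unadjusted p under 0.05 by edgeR, Tbx21 (log2 fold change 1.45 ± 0.62, edgeR adjusted p = 0.11) and Il2rb (1.09 ± 0.49, edgeR adjusted p = 0.133), and 0 called by DESeq2. Il2rb passed in the fit without unirradiated tumour 4, making 1 call. Ncr1 was at 0.04 in this contrast, with a 95% interval of -1.01 to 1.10. The interaction of dose and antibody called 0 of the 9 and 0% of all genes, with 0 at an unadjusted p under 0.05 by edgeR and 0 called by DESeq2, and all 9 estimates lay below 0 (-1.04 for Klrk1 to -0.06 for Eomes).

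Whether the response differed between tumour kinds was tested by interaction over all 48 tumours, and none of the 9 genes passed. For radiation with isotype (0.00517% of all genes called) and with anti-PD-1 (0% called), 0 of the 9 were at an unadjusted p under 0.05 by edgeR and 0 were called by DESeq2. For both treatments together (0% called), Ncr1 was at -1.91 (95% interval -3.53 to -0.30, edgeR adjusted p = 0.707) and Klrb1c at -2.28 (interval -4.44 to -0.12, edgeR adjusted p = 0.75), the 2 genes at an unadjusted p under 0.05 by edgeR, with 0 called by DESeq2. The larger combined response of the allografts is therefore not shown to differ from that of the primary tumours.

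Levels were then compared between kinds within each treatment, where kind also carries the host genotype, the carcinogen and the origin of the tumour cells. With 0 Gy and isotype, Klrb1c was higher in primary tumours, at 0.748 to 7.17 CPM (median 1.82), than in allografts, at 0.224 to 0.779 CPM. It was the only 1 of the 9 called (log2 fold change 2.58 ± 0.67, edgeR adjusted p = 0.029, 10% of all genes called). The highest allograft was just above the lowest primary tumour, and the call was lost without any of 3 of the 4 allografts (tumours 1, 3 and 4), with log2 fold changes of 2.38 to 2.50 and edgeR adjusted p of 0.0769 to 0.0987, and missed the threshold by limma-voom (2.30, adjusted p = 0.0515). All 4 of these allografts had at most 5 Klri2 reads and all 8 primary tumours had more, so tumour kind and Klri2 status cannot be told apart here. Other receptors of the complex were called in both directions. Of 10 Ly49 genes tested, Klra3 (edgeR adjusted p = 0.0133), Klra8 (edgeR adjusted p = 0.0186) and Klra9 (edgeR adjusted p = 0.0351) were higher in the primary tumours, and Klra17 (log2 fold change -3.36, edgeR adjusted p = 0.00104), Klra6 (-1.68, edgeR adjusted p = 0.0247) and Klra2 (-1.47, edgeR adjusted p = 0.037) lower. Of the 15 further receptors and adaptors, Klri2 was higher (edgeR adjusted p = 0.00239), and Klrc2 (-2.12, edgeR adjusted p = 0.00395) and Cd226 (-1.54, edgeR adjusted p = 0.0163) lower. The Ly49 calls fell to 3 without allograft 1 or 3 and to 2 without allograft 4. Ncr1 had a log2 fold change of 1.30 ± 0.61 (edgeR adjusted p = 0.196), and Tbx21 one of -1.42 ± 0.55 (edgeR adjusted p = 0.122). Without primary tumour 4, an alternative added after the values were seen, 3 of the 9 were called. Klrb1c was then at 2.16 (edgeR adjusted p = 0.0249), while Klrk1 (-1.33, edgeR adjusted p = 0.0441) and Tbx21 (-1.78, edgeR adjusted p = 0.0344) were lower in primary tumours. The further receptors and adaptors called numbered 8. The 10% is the share in the fit with tumour 4, and none is given here for this one. Leaving out the primary tumour highest for all 9 genes lowers their estimates, a direction fixed by that choice.

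With 0 Gy and anti-PD-1 the called genes went the other way, 2 of the 9 being lower in primary tumours (8.94% of all genes called). Klrd1 was 1.02 to 7.17 CPM (median 3.57) in primary tumours and 13.7, 7.94, 13.8 and 7.61 CPM in allografts, without overlap (log2 fold change -1.53 ± 0.40, edgeR adjusted p = 0.0324). Tbx21 was 0.740 to 5.25 CPM (median 1.73) in primary tumours and 7.64, 3.43, 11.6 and 5.63 CPM in allografts (log2 fold change -1.70 ± 0.45, edgeR adjusted p = 0.0341). Both calls were lost without allograft 1 or 3, and that of Tbx21 also without allograft 4; neither passed with all 48 tumours fitted. Without these allografts Klrd1 was at -1.40 to -1.37 (edgeR adjusted p 0.109 to 0.11) and Tbx21 at -1.80 to -1.34 (edgeR adjusted p 0.0542 to 0.143). With all 48 tumours fitted Klrd1 was at -1.56 (edgeR adjusted p = 0.0813) and Tbx21 at -1.73 (edgeR adjusted p = 0.086). In the same contrast 8 of 11 effectors shared with T cells were lower in primary tumours (median log2 fold change -1.75, led by Gzmb, Ifng and Gzma) and 4 of 12 T cell markers (median -1.28, Trbc1, Cd3d, Cd8a and Cd3e). Without allograft 1 these counts were 3 and 1, without allograft 3 they were 3 and 0, and the T cell count was 2 without allograft 4. With all 48 tumours fitted they were 4 and 0, and by DESeq2 8 and 7. At its highest with a single tumour left out, the T cell count was 6. The part of these transcripts in the values of Klrd1 and Tbx21 was not tested. After 20 Gy with isotype 0 of the 9 were called (4.76% of all genes), also without primary tumour 5, with 0 at an unadjusted p under 0.05 by edgeR and 0 called by DESeq2. After 20 Gy with anti-PD-1 0 were called as well (0.00566% of all genes), with 3 at an unadjusted p under 0.05 by edgeR (Klrd1, Klrk1 and Klrc1, log2 fold changes of -1.95, -1.74 and -1.68) and 0 called by DESeq2.

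Transcripts of other leukocytes were measured beside the 9 genes. In bulk tumours, fewer cells of a type and less RNA per cell cannot be told apart. Ptprc rose with radiation under isotype in allografts, from 106.6, 151, 222 and 95.4 CPM to 508, 310.2, 444 and 442 CPM (log2 fold change 1.59, edgeR adjusted p = 0.00802), and in primary tumours (1.09, edgeR adjusted p = 0.0195). All 4 pan-leukocyte markers were called in both kinds (beside 5.14% of all genes in allografts and 14.5% in primary tumours), 1 to 4 of them without single allografts and 2 to 4 without single primary tumours. In allografts the 4 became 0 with the first digit of the animal number as a covariate, 1 with Xist as a covariate, 1 without the tumours with over 5 Klri2 reads and 2 with all 48 tumours fitted. Of the 12 T cell markers 0 were called with radiation under isotype in either kind by edgeR, with medians of 0.09 in allografts and 0.76 in primary tumours. In allografts 0 of them were at an unadjusted p under 0.05 and 0 were called by DESeq2, and in primary tumours 2 and 1. Cd3e was 10.6, 16.7, 18.7 and 5.90 CPM at 0 Gy and 6.02, 10.4, 19.5 and 13.3 CPM at 20 Gy in the allografts (log2 fold change -0.04, edgeR adjusted p = 0.977). Klrk1, Klrd1, Klrc1, Eomes, Tbx21 and Il2rb are also expressed by effector T cells, and the part T cells have in their values was not tested. The summed T cell markers had medians of 107.1 CPM in allografts and 29.9 CPM in primary tumours at 0 Gy with isotype, where 7 of the 12 were called lower in primary tumours, Trbc2, Cd3d and Cd8a leading (beside 10% of all genes; 0 to 5 of the markers without single control allografts, 0 without tumour 2, and 2 with all 48 tumours fitted). Of 5 tested markers of other innate lymphoid cells, 0 were called with radiation under isotype in allografts, with 0 at an unadjusted p under 0.05 by edgeR and 0 called by DESeq2, and 1 in primary tumours, Cd200r1. Between kinds at 0 Gy with isotype 2 of these 5 were lower in primary tumours, and 0 without control allograft 2. Summed B cell markers stayed between 0.297 and 10.4 CPM over all tumours. Summed skeletal muscle markers varied from 7.44 to 56620 CPM, with 0 of 4 called, and 0 at an unadjusted p under 0.05 by edgeR, in either kind after radiation with isotype. In primary tumours 3 of the 4 were at an unadjusted p under 0.05 by edgeR after radiation with anti-PD-1 and after both treatments. Their medians were 2.87 and 3.02, with 0 called by edgeR and 1 and 3 by DESeq2. Among primary tumours given isotype the summed muscle markers spanned 40.9 to 4062 CPM at 0 Gy and 190 to 33470 CPM at 20 Gy. The part of muscle content in the values was not tested.

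To set natural killer signal against T cell and leukocyte signal within a tumour, the log2 ratios of Ncr1 to Cd3e and of Ncr1 to Ptprc were taken from CPM with 0.5 added to each, a choice made after the values were seen. They were compared in 16 exact permutation tests (2-sided, on the mean ratio), adjusted over the 16 by Benjamini-Hochberg. Ncr1 relative to Cd3e was higher in primary tumours than in allografts at 0 Gy with isotype, at 0.07 ± 1.01 (SD, n = 8) against -2.43 ± 0.67 (SD, n = 4). The difference was 2.50 without overlap (exact permutation p = 0.00404, the smallest that 8 against 4 can give, adjusted p = 0.0215). At 20 Gy with isotype it was 2.02, also without overlap (exact permutation p = 0.00404, adjusted p = 0.0215). At 0 Gy with anti-PD-1 it was 1.70 (exact permutation p = 0.00808, adjusted p = 0.0259), higher in 7 of 8 primary tumours than in any allograft. At 20 Gy with anti-PD-1 it was 1.24 and did not pass (exact permutation p = 0.154, adjusted p = 0.205). Ncr1 alone was called between kinds under no treatment. Its log2 fold change was 1.30 at 0 Gy with isotype and 0.25 at 0 Gy with anti-PD-1. There Cd3e was lower in primary tumours (edgeR adjusted p = 0.0285 and 0.0485). Of the 9 genes, 4 and 2 had estimates above 0 in these comparisons.

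Relative to Ptprc, Ncr1 was higher in primary tumours by 1.36 at 0 Gy with isotype (exact permutation p = 0.00808, adjusted p = 0.0259), by 1.97 at 20 Gy with isotype (exact permutation p = 0.00404, adjusted p = 0.0215) and by 0.97 at 0 Gy with anti-PD-1 (exact permutation p = 0.0162, adjusted p = 0.0432). At 20 Gy with anti-PD-1 the difference of 0.91 did not pass (exact permutation p = 0.0404, adjusted p = 0.0722). With other added constants or without single tumours, the isotype differences for Cd3e at both doses and for Ptprc at 20 Gy passed in all 14 settings tried. Those for Cd3e at 0 Gy with anti-PD-1 and for Ptprc at 0 Gy with isotype passed in 11 of 14, and that for Ptprc at 0 Gy with anti-PD-1 in 5 of 14. At 20 Gy with anti-PD-1 both passed in 1 of 14, without primary tumour 4 (1.70 for Cd3e and 1.06 for Ptprc, exact permutation adjusted p = 0.0277 and 0.0324).

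The contrasts of dose did not pass for these ratios. Ncr1 relative to Cd3e was higher after 20 Gy under anti-PD-1 by 1.77 in allografts, without overlap (exact permutation p = 0.0286, the smallest that 4 against 4 can give, adjusted p = 0.0654), and by 1.30 in primary tumours (exact permutation p = 0.0406, adjusted p = 0.0722). Under isotype the differences were 1.07 in allografts (exact permutation p = 0.114, adjusted p = 0.166) and 0.59 in primary tumours (exact permutation p = 0.184, adjusted p = 0.226). None of these 4 passed after adjustment, and of their other settings 1 did, anti-PD-1 in primary tumours without irradiated tumour 4 (1.76, exact permutation adjusted p = 0.00995). Ncr1 relative to Ptprc gave -0.62, -0.18, -0.01 and -0.24 for the same contrasts (allografts with isotype and anti-PD-1, then primary tumours with isotype and anti-PD-1), with adjusted p from 0.137 to 0.977 by the exact permutation test. Ncr1 and Ptprc were both called higher in the irradiated allografts given isotype, and their ratio moved by -0.62 without passing. This does not show that they rose equally. Even full separation of 4 against 4, as for Cd3e under anti-PD-1, gave an exact permutation adjusted p of 0.0654.

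**Figure D4:**
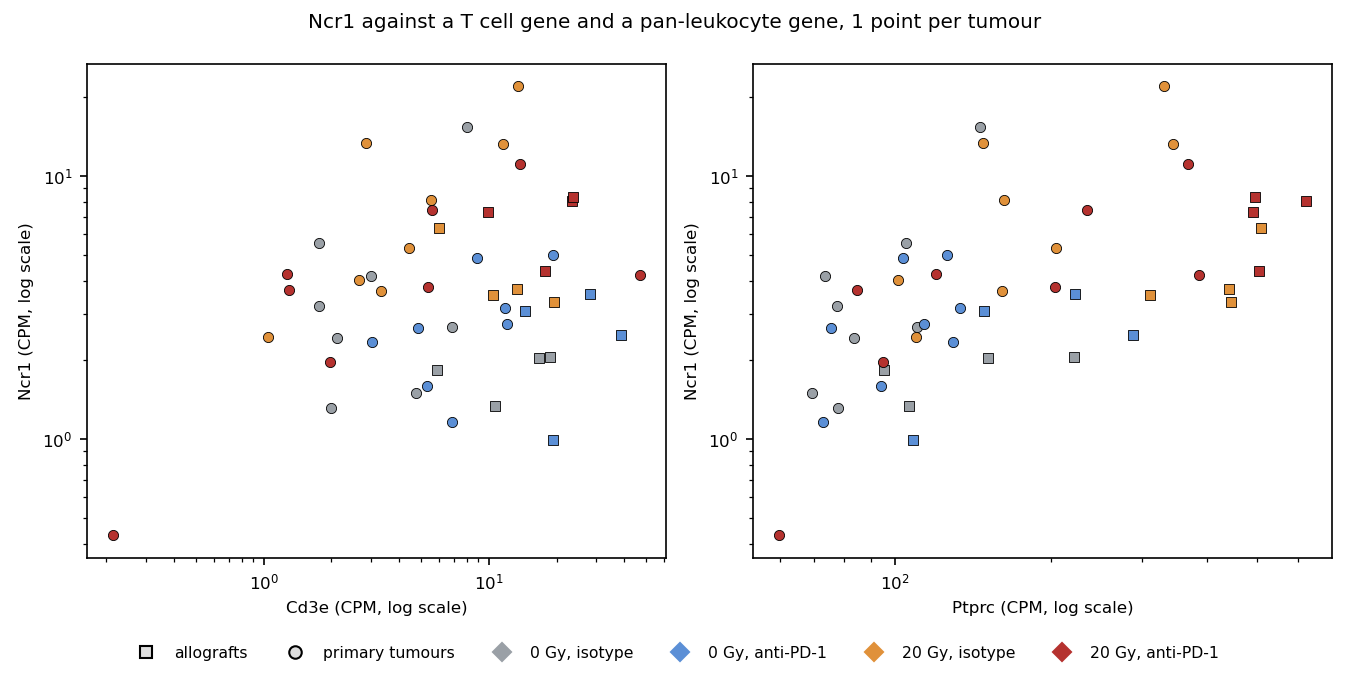
Ncr1 CPM against Cd3e CPM (left) and Ptprc CPM (right) in each of the 48 tumours on log axes, squares for allografts and circles for primary tumours, coloured by treatment. At 0 Gy with isotype, and at 20 Gy with isotype, the ratio of Ncr1 to Cd3e of every primary tumour is above that of every allograft.

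Some ligands and cytokines that natural killer cells read were called with radiation under isotype in both kinds. Il15, the cytokine on which natural killer cell survival rests, was 3.84, 3.73, 4.44 and 4.35 CPM in allografts at 0 Gy and 20.3, 9.46, 6.58 and 8.71 CPM at 20 Gy (log2 fold change 1.47, edgeR adjusted p = 0.0122). In primary tumours Il15 rose by a log2 fold change of 1.06 (edgeR adjusted p = 0.0307). Of the list of natural killer cytokines and their receptors 4 of 13 tested genes rose in allografts (5.14% of all genes were called there, and 14.5% in primary tumours), among them Il21r, Il15 and Il18bp, and 9 of 12 in primary tumours, led by Il18bp, Il2rg and Il2ra. Il18bp, a decoy that binds interleukin-18, had log2 fold changes of 1.82 in allografts (edgeR adjusted p = 0.0226) and 2.89 in primary tumours (edgeR adjusted p = 7.23e-06).

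Of the ligand list, 12 of its 16 genes were in the table and 11 were tested. H2-T23, whose product Qa-1 is the ligand of CD94 and NKG2A, averaged 156 ± 62.6 CPM (SD, n = 4) in allografts at 0 Gy and 418 ± 43.4 CPM (SD, n = 4) at 20 Gy (log2 fold change 1.45, edgeR adjusted p = 0.012). In primary tumours it averaged 97.4 ± 63.6 CPM (SD, n = 8) at 0 Gy and 388 ± 117.8 CPM (SD, n = 8) at 20 Gy, with a log2 fold change of 2.01 (edgeR adjusted p = 0.000181). H2-K1 and H2-D1, classical class I genes, were the other 2 called in allografts, making 3 of 11 beside 5.14% of all genes. In primary tumours, where 14.5% of all genes were called, 5 ligand genes rose and 1 fell, the last being Ulbp1, a stress ligand of NKG2D, with a log2 fold change of -1.24 (edgeR adjusted p = 0.0243).

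Effector genes shared by natural killer and T cells also rose with radiation under isotype, 4 of 11 in each kind and the same 4 genes, Ccl5, Tnfsf10, Gzmb and Gzma, where 5.14% of all genes were called in allografts and 14.5% in primary tumours. Ccl5, a chemokine, had log2 fold changes of 2.67 in allografts (edgeR adjusted p = 0.0077) and 2.76 in primary tumours (edgeR adjusted p = 0.000209). Gzmb, a granule protease, had 1.92 (edgeR adjusted p = 0.0294) and 2.00 (edgeR adjusted p = 0.0247). Among further receptors and adaptors, Cd244a and Fcer1g were called in allografts (2 of 14 tested), and Fcer1g and Tyrobp in primary tumours (2 of 15). Fcer1g, a signalling adaptor also found in myeloid cells, had log2 fold changes of 1.25 (edgeR adjusted p = 0.0196) and 1.35 (edgeR adjusted p = 0.00194). Of the Ly49 family, Klra2 and Klra5 were called in allografts (2 of 8) and Klra2 in primary tumours (1 of 10). In primary tumours the shares of these 2 lists lay near that over all genes and are no result about them. Of the further transcription factors, 0 of 9 were called in allografts (2 at an unadjusted p under 0.05 by edgeR, 0 called by DESeq2), and in primary tumours 2 rose (Zeb2 and Id2) and 1 fell (Ets1). Macrophage markers were called as well, 1 of 5 in allografts (Cd68) and 2 of 5 in primary tumours (Cd68 and C1qa). Without single allografts, control tumours 1, 2 and 4 among them, the counts moved to 1 to 3 for effectors, 1 to 2 for receptors and adaptors, 0 to 3 for the Ly49 family, 0 to 3 for ligands, 0 to 3 for macrophage markers and 1 to 4 for cytokines. Effectors in primary tumours numbered 8 without unirradiated tumour 4 and 2 without irradiated tumour 5, and receptors and adaptors 4 without unirradiated tumour 4 or irradiated tumour 2. The Ly49 calls there reached 3 without irradiated tumour 2, transcription factors fell to 1 without unirradiated tumour 2 or 8 or irradiated tumour 3, and macrophage markers ran from 1 to 3, both of the tumours highest for the 9 genes among those that lowered them. With the first digit of the animal number as a covariate, the allograft counts were 0 for effectors, receptors and adaptors, the Ly49 family, ligands and macrophage markers and 1 for cytokines. With all 48 tumours fitted they were 1 for effectors and for cytokines and 0 for the others. The lists were chosen with earlier results of the same tumours known.

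After both treatments in the allografts, where 9.66% of all genes were called, the counts were 6 of 14 further receptors and adaptors (Cd244a, Fcer1g and Tyrobp leading), 4 of 8 Ly49 genes (led by Klra2, Klra7 and Klra5), 6 of 11 effectors (led by Gzmb, Tnfsf10 and Ccl5) and 7 of 13 cytokines and receptors (led by Il21r, Il15 and Il18bp). Of the 12 T cell markers 1 was called, Trbc1, with a median of 0.86. Macrophage markers gave 4 of 5 (Cd68, C1qa and C1qb leading) and pan-leukocyte markers 4 of 4. Without single allografts these counts ran from 2 to 6 for receptors and adaptors, 2 to 5 for the Ly49 family, 4 to 7 for effectors, 4 to 9 for cytokines and receptors, 0 to 1 for T cell and 1 to 4 for macrophage markers, control tumours 1 and 4 and treated tumour 3 among those that lowered them. With all 48 tumours fitted they were 3 for receptors and adaptors, 1 for the Ly49 family, 2 for effectors, 2 for macrophage and 0 for T cell markers. Median log2 fold changes were 1.37 for receptors and adaptors, 1.91 for the Ly49 family and 1.49 for effectors, beside 1.41 for the 9 genes and -0.04 over all genes tested.

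Across tumours, the 9 genes followed Ncr1 to unequal degrees. After the mean of its group was taken from each tumour's log2 value, the 5 genes with the highest Spearman correlation to Ncr1 over the 48 tumours, of 19326 ranked, were Klre1 (0.89), Klrb1f (0.86), Klrb1c (0.85), Txk (0.82) and Trdc (0.82). Klrb1f is a further receptor of the same gene complex, Txk a kinase of lymphocytes and Trdc the constant segment of the T cell receptor delta chain. Klrd1 ranked 9 (0.79), Klrc1 14 (0.77) and Eomes 16 (0.75). Klrk1 (0.64) came after these, and Il2rb ranked 250 (0.59) and Tbx21 347 (0.57). Genes outside the 9 lay among these: Gzma ranked 37 (0.70), above Klrk1, and Ptprc 177 (0.61) and Il15 243 (0.59), above Il2rb and Tbx21. Cd8a ranked 495 (0.53) and Cd3e 1429 (0.41). Points share library depth and the leukocyte content of a tumour, and the values are descriptions. Between pairs of the 9 genes, the Pearson correlation of these deviations had a median of 0.39 (-0.23 to 0.92 over 36 pairs) in allografts and 0.81 (0.61 to 0.96) in primary tumours.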

How the data were processed

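RNA from 48 tumours with an integrity number above 7 was sequenced from stranded poly(A) libraries, per the labels' protocols. Reads were trimmed with Trimmomatic 0.36, counted with HTSeq and placed on mm10, per the submitters' processing notes; the annotation and strand setting of the counting are not given in the sources used here. The deposited table holds raw whole-number counts per Ensembl gene, named by the authors for a first run. GENCODE M21 named 36796 of 36854 genes; 0 entries named no gene.

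Groups came from the labels, and tumours were numbered in the order of deposition, which pairs nothing. From the deposited counts, filterByExpr, TMM scaling and edgeR 4.0.16 (quasi-likelihood test, R 4.3.3) gave log2 fold changes, with p-values adjusted over all genes tested (17746 in allografts, 17770 in primary tumours, 19327 over all 48 tumours). SE is the size of the log2 fold change divided by the square root of F. Between kinds, only the 2 groups compared were fitted. RPKM is CPM per kilobase of merged exons. Ratios were tested with scipy 1.17.1. P-values measure the spread between samples labelled as separate tumours, and intervals from reads without molecular identifiers cover amplified copies too. The fit was tested on simulated data. Alternatives were DESeq2 1.42.0, limma-voom 3.58.1, DESeq2's size factors, no filter, covariates and tumours left out in turn.

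Members, lists and named genes were chosen with earlier results of these data known. The text names all 9 genes, Cd3e, Ptprc and Il15, up to 3 called genes with the smallest p per list and comparison, and the 5 genes most like Ncr1 by rank correlation. Klri2, Klra2, Klra3, Klra6, Klra8, Klra9, Trp53 and further called genes of short lists (5 or fewer) were named after their values were seen. One of the lists fixed for this work is not reported here.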

Additional observations from a re-analysis of the deposited data

Results flagged for a closer look

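In 13 of 72 sets of values (9 genes in 8 groups), the highest or lowest tumour lay farther from its nearest neighbour, relative to the range of its group, than Dixon's 95% limit allows. For normally distributed values chance gives about 1 in 20. The limit was applied to CPM without taking logs, so skewed values can pass it more often. Since the 9 genes share tumours, the sets are not independent.

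Most concern a single tumour. In the primary tumours given 0 Gy and isotype, tumour 4 stood apart with Ncr1 at 15.33 CPM (next 5.586), Klrb1c at 7.169 CPM, Klrk1 at 22.47 CPM, Klrd1 at 13.24 CPM, Klrc1 at 6.987 CPM, Klre1 at 6.465 CPM, Eomes at 6.804 CPM and Il2rb at 68.59 CPM (next 22.93). Tbx21 was highest in that tumour too without standing apart. In the primary tumours given 20 Gy and isotype, Klrk1 in tumour 5 stood at 107.95 CPM (next 42.23). In those given 20 Gy and anti-PD-1, Klrb1c in tumour 3 stood at 9.683 CPM (next 2.615). In those given 0 Gy and anti-PD-1, Tbx21 in tumour 1 stood at 5.245 CPM (next 2.769).

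Among the allografts given 20 Gy and isotype, tumour 1 had the highest Ncr1, at 6.327 CPM (next 3.723), and the lowest Eomes, at 3.329 CPM (next 4.297). It is also 1 of the 3 allografts with over 5 Klri2 reads.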

How the results depend on the processing

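No paired analysis was possible because replicate numbers follow the order of deposition and tie no tumours together. Averaging the antibody arms, the ratio constants and leaving out the tumours apart in Klri2 were added after seeing the data. Numbers of the 9 genes called follow, setting by setting, where they moved by over 1.5 times, with the range over single tumours left out. The cause was not tested, and the share of all genes called under each setting is not given beside them. Allografts, radiation with isotype (2 in the report): DESeq2's size factors 1, no filter 1, DESeq2 4, the first digit of the animal number as covariate 0, Xist as covariate 1, all 48 tumours fitted together 0, arms averaged 5, without the tumours apart in Klri2 1, without single tumours 1 to 2. Allografts, radiation with anti-PD-1 (1): DESeq2 4, Xist 0, all 48 tumours 0, only the 2 groups compared 0, arms averaged 5, Klri2 0, single tumours 0 to 2. Allografts, both treatments (5): all 48 tumours 0, single tumours 4 to 7. Primary tumours, radiation with isotype (1): limma-voom 0, arms averaged 2, single tumours 0 to 5; with anti-PD-1 (0): arms averaged 2; both treatments (0): single tumours 0 to 1. Primary tumours against allografts at 0 Gy with isotype (1): limma-voom 0, single tumours 0 to 3, the 3 without primary tumour 4 (added after seeing the data); at 0 Gy with anti-PD-1 (2): limma-voom 4, DESeq2 4, all 48 tumours 0, single tumours 0 to 2; at 20 Gy with anti-PD-1 (0): all 48 tumours 1, Klrd1. The digit was 4 rather than 5 in 0, 1, 3 and 1 of the 4 allografts of the groups 0 Gy isotype, 0 Gy anti-PD-1, 20 Gy isotype and 20 Gy anti-PD-1, and Xist was above 10 CPM in 1, 1, 3 and 3. None of the 34 fold changes of the 9 genes called under some setting changed sign. Counted over each fold change and alternative, the side of the threshold was kept 779 times, lost 51 times and gained 39 times. Of the fold changes called under no setting, 41 changed sign under one. Depth limits Klrb1c most, with 6 reads in its lowest tumour.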
